A study of Homo sapiens with 2 samples.

Results

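HLA class I presentation was described here through 9 genes: the heavy chain genes HLA-B, HLA-C, HLA-E, HLA-F and HLA-G, the light chain gene B2M, the peptide transporter genes TAP1 and TAP2, and NLRC5, which encodes the transactivator of class I promoters. The genes were taken by name, and any peak overlapping a GENCODE gene body or the 5 kb on either side was counted. They are 9 of 20033 protein-coding genes annotated on hg38, and 7 of them lie on chromosome 6. The open chromatin was that of CAMA-1, a breast adenocarcinoma cell line, profiled by ATAC-seq, in which the Tn5 transposase cuts and tags accessible DNA. Both samples were biological replicates of 50000 untreated cells from adherent culture in DMEM with fetal bovine serum, so the series held 1 condition with n = 2. No knockout, drug or control group entered, and all values describe a single cell line.

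Class I molecules carry peptides from inside the cell to its surface, where CD8+ T cells and natural killer cells read them. A heavy chain pairs with beta-2 microglobulin, the product of B2M, and is loaded with peptides that the proteasome cuts and the TAP1 and TAP2 proteins pump into the endoplasmic reticulum. The promoters of many class I genes carry a module of W/S, X and Y boxes on which the RFX complex, CREB/ATF factors, NF-Y and NLRC5 assemble, and many also carry NF-kB and interferon response elements. HLA-B and HLA-C are classical and highly polymorphic heavy chains, HLA-E presents leader peptides to natural killer cell receptors, and HLA-G is best known from the placenta. Tumours can lower this pathway to escape T cells. An open promoter is not a measure of expression.

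The sequences just upstream of the start sites show what the heavy chain promoters share and where they part. RefSeq promoter windows (GRCh38.p14, reaching from 250 bases before the start to 50 after it) were matched for 7 of the 9 genes, all but HLA-E and NLRC5. The 250 bases before the start are printed 5′ to 3′ on the strand of the gene, with capitals marking matches on either strand to the interferon response element TTCNNTTTC, the kB site GGGANTCCC, the X2 site letters TGACG and the Y box CCAAT. The 4 heavy chain promoters are shown because 1 of them, HLA-C, lay under a peak that split in 1 replicate, 1, HLA-F, lay under an undivided peak, and those of HLA-B and HLA-G had no peak. They are HLA-B at chr6:31357180-31357429 (minus strand), HLA-C at chr6:31272093-31272342 (minus strand), HLA-F at chr6:29723184-29723433 (plus strand) and HLA-G at chr6:29827575-29827824 (plus strand).
HLA-B: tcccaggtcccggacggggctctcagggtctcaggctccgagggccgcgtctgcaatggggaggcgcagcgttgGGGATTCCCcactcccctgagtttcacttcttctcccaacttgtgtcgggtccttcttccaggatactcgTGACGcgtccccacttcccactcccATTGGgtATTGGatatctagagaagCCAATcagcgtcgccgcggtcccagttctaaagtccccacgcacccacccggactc
HLA-C: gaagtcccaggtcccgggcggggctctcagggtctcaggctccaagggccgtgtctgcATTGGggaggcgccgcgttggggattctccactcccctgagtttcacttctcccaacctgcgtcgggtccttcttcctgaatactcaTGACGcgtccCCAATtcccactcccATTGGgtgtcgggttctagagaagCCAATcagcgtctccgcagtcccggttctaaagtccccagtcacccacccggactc
HLA-F: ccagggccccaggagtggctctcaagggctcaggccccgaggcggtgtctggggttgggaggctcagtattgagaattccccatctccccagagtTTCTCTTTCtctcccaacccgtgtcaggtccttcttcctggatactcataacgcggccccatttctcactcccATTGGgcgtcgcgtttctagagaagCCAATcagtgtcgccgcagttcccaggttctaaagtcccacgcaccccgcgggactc
HLA-G: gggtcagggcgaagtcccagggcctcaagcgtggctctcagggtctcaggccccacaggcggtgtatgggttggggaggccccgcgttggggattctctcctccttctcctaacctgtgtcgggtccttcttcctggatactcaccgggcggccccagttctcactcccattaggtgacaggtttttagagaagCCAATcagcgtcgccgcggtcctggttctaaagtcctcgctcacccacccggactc

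Over the whole windows, the promoters of HLA-B and HLA-C were identical at 88.5% of aligned columns. Those of HLA-F and HLA-G were the least alike at 73.4%, and HLA-G shared 73.5% with HLA-B and 78.3% with HLA-C. All 4 held a Y box at nearly the same place, from -56 to -52 in HLA-B, HLA-C and HLA-G and from -57 to -53 in HLA-F. The X2 letters were found in HLA-B, from -106, and in HLA-C, from -105, and these letters were not in the windows of HLA-F and HLA-G. The kB site of HLA-B began at -176 and was the sole exact match to that motif among the 4 heavy chain windows. Near matches were not searched for, so the others are not shown to lack a kB site. The interferon response element of HLA-F began at -155. As a measure of how common such letters are, 34.6% of 35116 RefSeq promoter windows held CCAAT, 24.6% TGACG, 8.11% the interferon response element and 0.877% the kB site. A match is a run of letters and was not read as a bound site.

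B2M and TAP1 are printed because their promoters each held a pair of overlapping interferon response elements under a strong peak. B2M was read at chr15:44711267-44711516 (plus strand) and TAP1 at chr6:32853705-32853954 (minus strand).
B2M: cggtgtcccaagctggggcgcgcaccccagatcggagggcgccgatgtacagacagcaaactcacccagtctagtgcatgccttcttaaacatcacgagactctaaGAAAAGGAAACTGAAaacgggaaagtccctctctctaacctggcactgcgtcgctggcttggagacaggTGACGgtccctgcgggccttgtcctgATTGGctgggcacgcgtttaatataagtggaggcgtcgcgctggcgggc
TAP1: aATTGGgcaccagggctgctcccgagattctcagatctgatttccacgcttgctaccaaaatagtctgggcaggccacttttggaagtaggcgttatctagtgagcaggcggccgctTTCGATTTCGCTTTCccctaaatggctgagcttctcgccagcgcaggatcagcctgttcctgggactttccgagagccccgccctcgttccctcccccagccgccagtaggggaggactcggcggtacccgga

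In B2M the pair ran from -144 to -130, with X2 letters from -75 and a Y box from -49. In TAP1 the pair ran from -133 to -119. The TAP2 window also held the response element, from -58 to -50, and X2 letters from -35. B2M, TAP1, TAP2 and HLA-F thus held an exact match to TTCNNTTTC, 4 of the 7 genes matched. Near matches were not searched for, so HLA-B, HLA-C and HLA-G are not shown to lack the element. The canonical windows of the 7 genes had a GC content between 58.3% and 63%, beside a median of 58.7% over all windows.

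MACS2, the peak caller, gave each peak a fold enrichment, the ratio of the peak's height to the genome background with 1 added to both. The lists held 245736 and 259745 peaks over 107.9 and 113.8 Mb, with median fold enrichments of 8.28 and 7.96. No peak was lower than 11 in height, so weaker accessibility would not be listed, and the lists gave no read totals. The genome backgrounds recovered from the steps between values were 3.35 and 3.52. TSS peaks stood at 7 of 7 luminal epithelial markers, beside 79.3% of all protein-coding genes. KRT8 had 143 and ESR1, the lowest of them, 31.9. Among blood markers, PTPRC, CD3E, CD79A and SPI1 had none and CD14 had one of 50.2. Of 4 stromal and endothelial markers 3 had one, CDH5 at 60.9, COL1A2 at 18.3 and COL3A1 at 10.3, and PECAM1 had none.

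A TSS peak, meaning a peak within 1 kb of any annotated transcription start site (TSS) of the gene, was present in both replicates at 8 of the 9 class I presentation genes. HLA-G was the exception in both. Among all protein-coding genes the share was 79.3% (95% Wilson interval 78.8 to 79.9), so the count for the 9 genes lay near the background. In strength, 8 of 8 TSS peaks were above the median of all genes with one, 52.6, and 6 were above the 75th percentile of 83.4. HLA-B counts in both through an interval upstream of its canonical TSS, described below. The median over the 8 genes was 101. These are descriptions of a chosen list, and no test was made of it.

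**Figure D1:**
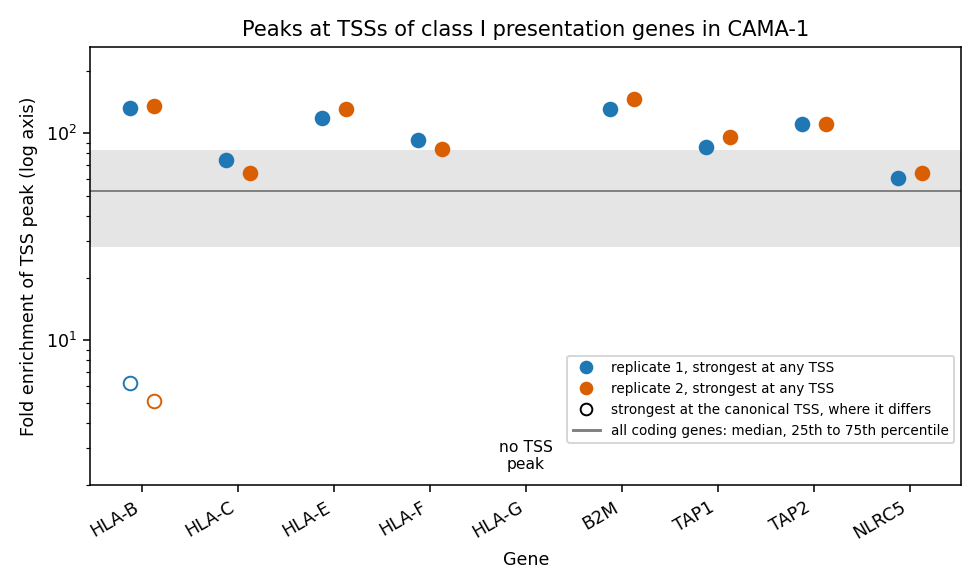
Fold enrichment (log axis) of the strongest peak within 1 kb of a TSS for each gene in replicate 1 (blue) and replicate 2 (orange), with the median (line) and the 25th to 75th percentiles (band) of all protein-coding genes with a TSS peak. B2M, HLA-B, HLA-E, TAP2, TAP1 and HLA-F sit above the band on their replicate means, and the open circles show the weak peaks of 6.21 and 5.09 near the canonical TSS of HLA-B.

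B2M, the light chain shared by every class I molecule, had the highest mean. Its TSS peak reached a fold enrichment of 131.4 in replicate 1 and 146.6 in replicate 2 (139 ± 10.8, SD, n = 2), higher than 94.4% of TSS peaks. The peak ran over the same bases, chr15:44710901-44712259, in both replicates and also covered a TSS of the neighbouring gene PATL2. Its heights were 570 and 662, with exact 95% Poisson intervals of 524 to 619 and 612 to 714, which cover counting error only.

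HLA-E, the ligand of CD94/NKG2 receptors, followed among the genes whose peak covered the canonical TSS. It had 118 in replicate 1 and 130.5 in replicate 2 (124 ± 8.79, SD, n = 2) at chr6:30489040-30490797, a broad peak of 1758 bp in replicate 1 and 1696 bp in replicate 2 that reached into the coding exons. HLA-F, a non-classical heavy chain, had 92.5 and 84.25 (88.4 ± 5.83, SD, n = 2) at chr6:29722918-29723940. Here replicate 1 was the higher, whereas it was the lower for HLA-E and B2M.

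HLA-C, a classical heavy chain and a ligand of killer-cell immunoglobulin-like receptors, had the lowest TSS peak among the heavy chains that had one at the canonical TSS. The values were 74.3 and 64.6 (69.4 ± 6.9, SD, n = 2), at the 65.4th percentile. In replicate 1 the peak was a single block of 838 bp, chr6:31271577-31272414. In replicate 2 the same stretch was called as separate peaks, 407 bp over the TSS and 294 bp over coding sequence with a fold enrichment of 21.7.

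HLA-B differed between its annotated starts. The strongest peak within 1 kb of a TSS had fold enrichments of 132.1 and 134.7 (133 ± 1.83, SD, n = 2) at chr6:31366740-31367460. This peak was centred at -9921 bp from the canonical TSS at position 31357179, on starts of long upstream transcripts, and it covered starts of the pseudogene DHFRP2 and the non-coding gene ENSG00000285647 as well. A further peak at -11498 bp had 46 and 43.3. The canonical TSS of HLA-B had no peak over it in either replicate. The nearest peaks began 479 and 464 bp inside the gene, with fold enrichments of 6.21 and 5.09 (5.65 ± 0.797, SD, n = 2), higher than 3.23% of the peaks near canonical TSSs. The values of 132.1 and 134.7 are therefore those of the upstream interval, which lies in the rule for the gene but not at the promoter printed above.

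HLA-G had no peak within 1 kb of any of its 4 annotated TSSs in either replicate. The nearest peaks were 7079 and 7082 bp from the canonical TSS, downstream of the gene at chr6:29834904-29835285, in sequence without an annotated gene. They had fold enrichments of 8.51 and 9.73, near the medians of all peaks.

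With each gene reduced to its canonical TSS, 7 of the 9 genes had a peak over it in both replicates, all but HLA-B and HLA-G, beside 65.0% of all protein-coding genes. This view was added after the values had been seen. The median of the strongest peak within 1 kb of the canonical TSS was then 89.7 over 8 genes and 50 over all genes, and 7 of the 8 were above the latter, all but HLA-B.

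Class I sequences are alike and polymorphic, so the share of reference sequence with exact copies was measured beside the peaks. In the 500 bp on either side of the canonical TSS, 14% of 32-base words of HLA-B occurred elsewhere on the main chromosomes, 13.2% of HLA-G, 12.7% of HLA-C and 18.9% of HLA-E. The share was 2.37% for HLA-F, 7.84% for TAP2 and 0% for B2M, TAP1 and NLRC5. No 100-base word of any of the 9 genes occurred elsewhere on the main chromosomes. HLA-E thus had the largest share of repeated short words.

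hg38 also holds alternate contigs with other haplotypes of the class I region. Of the 100-base words of HLA-B, 51.2% recurred on an alternate contig, each word 0.57 times on average. HLA-C followed with 80.2% and 1.25 copies, and HLA-F and HLA-G had 88.8% and 88.9% with 4.31 and 3.81 copies. For HLA-E and TAP1 the share was 100% with 5.76 and 6.45 copies, and NLRC5 had no such copy. TAP2 also had 100%, with 4.01 copies. The upstream interval of HLA-B had 58.2% of its 100-base words on alternate contigs over the peak of replicate 1. Among the chromosome 6 genes, the reference sequence around the canonical TSS of HLA-B was thus the one least often found unchanged in other haplotypes. These windows reach 500 bp into the gene, so the shares are not those of the promoters alone. Whether the authors' reference included these contigs is not given in the sources used here, the HLA alleles of CAMA-1 were not read, and the part of read mapping in the values of HLA-B, HLA-C and HLA-G was not tested.

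**Figure D2:**
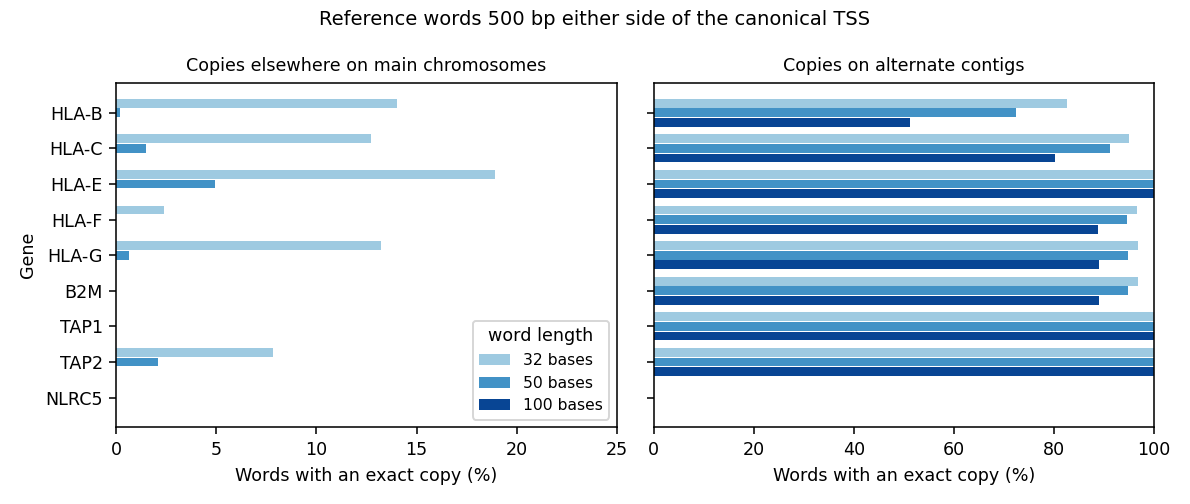
Share (%) of reference words of 32, 50 and 100 bases within 500 bp of the canonical TSS that have an exact copy elsewhere on the main chromosomes (left, axis to 25%) or on alternate contigs (right, axis to 100%), for each gene. At 100 bases no gene has a copy on the main chromosomes, and HLA-B has the lowest share on alternate contigs among the chromosome 6 genes, 51.2%.

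TAP1 and TAP2, the subunits of the peptide transporter, both had strong TSS peaks. TAP2 had 110.9 and 111.4 (111 ± 0.384, SD, n = 2) at chr6:32837754-32839283. TAP1 had 86 and 96 (91 ± 7.01, SD, n = 2). TAP1 is transcribed away from PSMB9, which encodes an inducible proteasome subunit. Their RefSeq starts lie 488 bp apart, at 32853704 and 32854192, and a single peak covered both in each replicate, chr6:32852917-32854958 (2042 bp) and chr6:32852842-32854996 (2155 bp). The accessibility of this interval cannot be assigned to TAP1 or PSMB9 separately. The peak's midpoint lay 233 and 215 bp from the TAP1 start, towards PSMB9. The 5 kb downstream of TAP1 held an even stronger peak, 160.6 and 172.3, at the starts of PSMB8, PSMB8-AS1 and a longer PSMB9 transcript, and this is the peak that stood for PSMB9 where its strongest TSS peak was taken.

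NLRC5 had the weakest TSS peak of the 8 genes, 60.7 in replicate 1 and 64.1 in replicate 2 (62.4 ± 2.39, SD, n = 2), at chr16:56989302-56989925. It stood at the 59.4th percentile of all TSS peaks and at the 48.1st on its own chromosome. Its promoter peak was also short, 609 and 624 bp, against 1359 bp at B2M.

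Ranked by mean, the order was B2M, HLA-B (upstream interval), HLA-E, TAP2, TAP1, HLA-F, HLA-C and NLRC5. The replicate values of B2M and HLA-B overlapped, as did those of TAP1 and HLA-F. The other neighbours did not overlap, but with 2 values a gene the order of neighbours is a description. The closest of them were HLA-C and NLRC5, with 64.6 as the lower value of HLA-C and 64.1 as the higher of NLRC5.

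Copy number was not corrected in the fold enrichments, so neighbouring genes offer a local scale. Coding genes between 28.5 and 33.5 Mb of chromosome 6 had a TSS peak in both replicates in 149 of 183 cases (81.4%), with a median of 89.2, against 52.6 over all genes. Of the 149, 109 were above the median of all genes and 83 above the 75th percentile. Within 5 Mb of each gene, the median was 76.6 around HLA-B, 77 around HLA-C, 82.1 around HLA-E, HLA-F and HLA-G, and 78.8 around TAP1 and TAP2. HLA-E, TAP2, TAP1 and HLA-F stayed above their local medians, while HLA-C was below its own. B2M was above a local median of 86.4 and NLRC5 was below one of 65.4. The neighbourhood of the chromosome 6 genes was thus itself above the median of all genes. Their ratios to the local median ranged from 0.902 for HLA-C to 1.51 for HLA-E, with 1.74 for the upstream interval of HLA-B. The 183 genes include the class I presentation genes of that stretch, whereas the medians within 5 Mb leave them out. The relation of these levels to copy number was not tested.

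Beyond the promoters, the 9 windows held 58 distinct peaks in replicate 1 and 56 in replicate 2, of which 19 and 20 were TSS peaks. The median was 5.5 peaks per gene window, beside 6.5 over all protein-coding genes. The median density was 2.37 peaks per 10 kb of window, beside 1.38. A promoter peak weighs more on the density of a short window, and genes of matched length were not compared. Peaks present in both replicates merged into 49 distinct regions, 18 near a TSS of the gene and 31 elsewhere. A further 9 peaks of replicate 1 and 5 of replicate 2 had no counterpart, all weak, with fold enrichments between 2.88 and 6.21. The share of peaks without a counterpart over the whole lists is not given here, so these counts have no background beside them.

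B2M had 8 shared regions. A region in an intron at 2285 bp from the canonical TSS had 31.3 and 33, and one beyond the end of the gene at 8408 bp had 39.4 and 34.9. HLA-E had a region in its UTR at 4227 bp with 15.9 and 14.4, and one past the gene at 7165 bp with 38 and 29.9. HLA-F had a region at -2359 bp with 20.9 and 18.4 and one at 14716 bp with 51.3 and 50. The latter lay on the start of the antisense gene HLA-F-AS1, 19 bp from it in replicate 1, so it is near the end of HLA-F but at another gene's promoter. TAP2 had a region over its UTR at 12631 bp with 28.5 and 30.7, and those further downstream lay at or near starts of HLA-DOB.

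**Figure D3:**
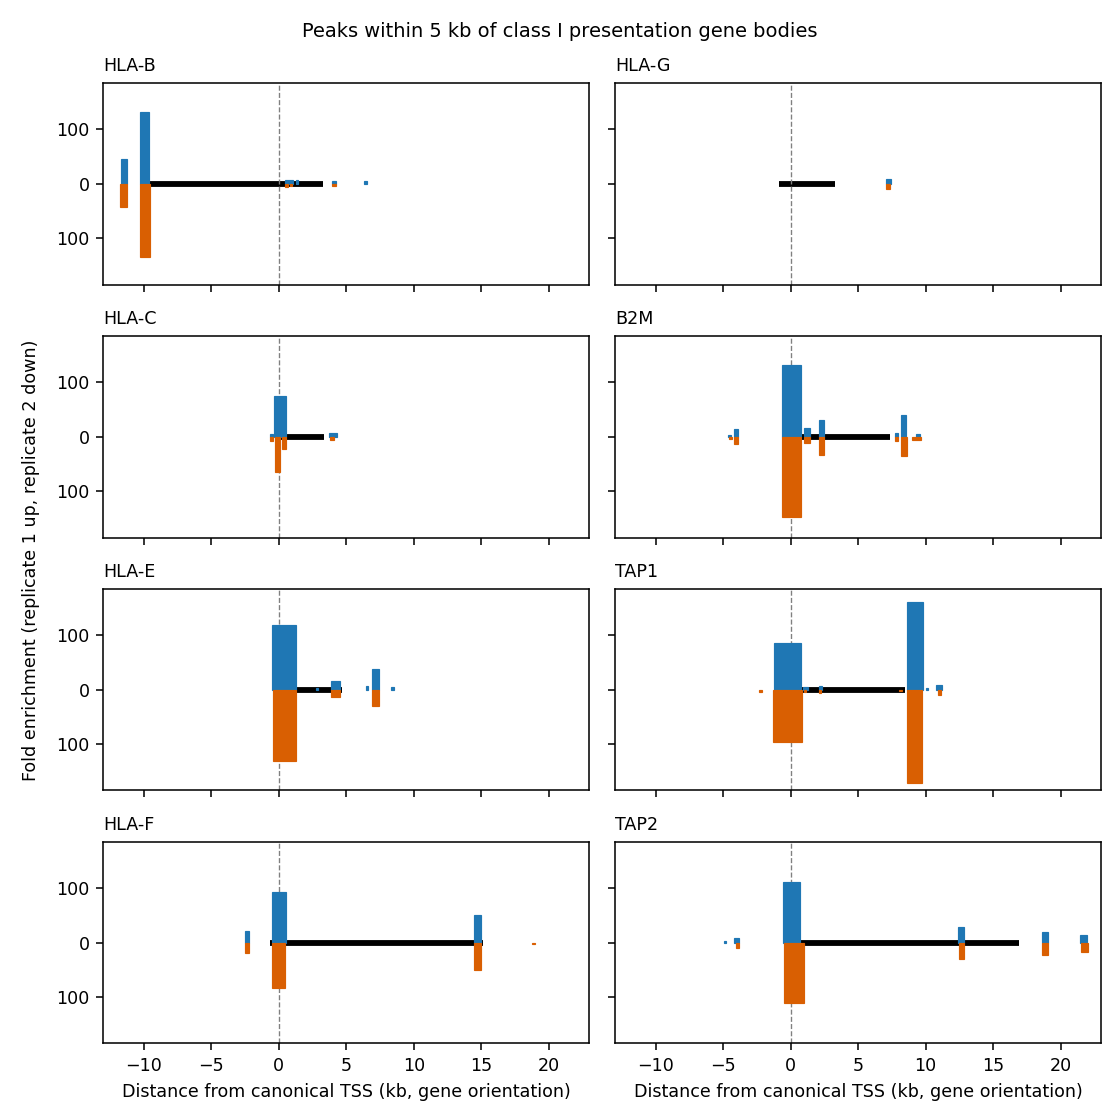
Peaks of replicate 1 (blue, upwards) and replicate 2 (orange, downwards) by distance from the canonical TSS (kb, in the direction of the gene), with fold enrichment as bar height, peak width as bar width and the gene body as a black line. The HLA-B panel has its tall bars at -9921 and -11498 bp and none over the dashed canonical TSS, HLA-G has short bars past its end only, and the tallest bars of the TAP1 panel are those at the PSMB8 start.

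NLRC5, the longest of the 9 genes, had 18 shared regions, of which 14 lay past the promoter and 3 before it. A region over coding sequence at 38774 bp from the canonical TSS had 56.8 and 52.4, close to the promoter's own values. Regions at 79417 bp and 56386 bp had 29.7 and 29.6, and 28.1 and 21.5, each within 1 kb of an internal annotated TSS. Upstream, the region at -4684 bp had 26.9 and 23. In all, 5 of the 18 regions had a mean fold enrichment of at least 20.

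**Figure D4:**
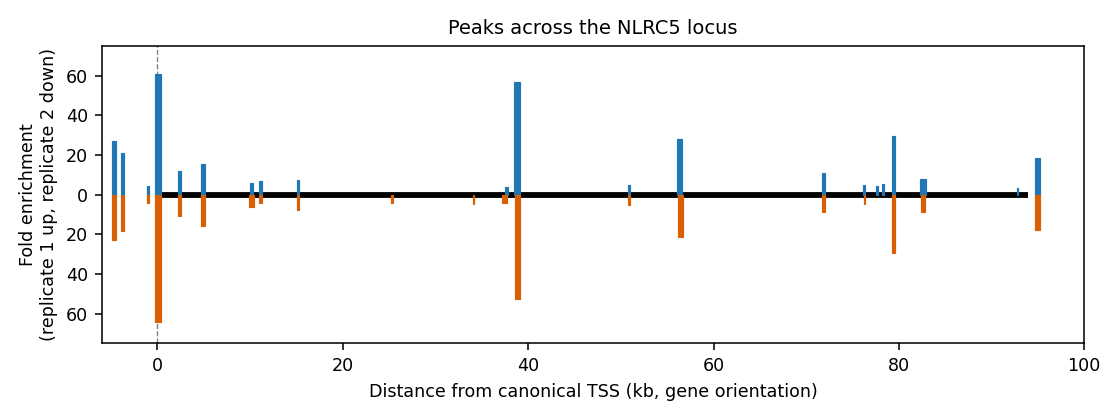
Peaks across NLRC5 by distance from its canonical TSS (kb), drawn as bars of fold enrichment for replicate 1 (up) and replicate 2 (down), with the gene body as a black line. The intragenic bars at 38774 bp, 56.8 and 52.4, nearly match those at the promoter, 60.7 and 64.1.

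Peak heights of the replicates were compared in every region with a peak in both, by an exact two-sided conditional binomial test with Benjamini-Hochberg adjustment. None of the 49 regions of the class I presentation genes passed an adjusted p of 0.05, beside 1 of 215195 regions in all (0.000465%). At an unadjusted p under 0.05 there were 3 of the 49. The share of all regions at that unadjusted threshold is not given here, so the 3 are named as a description only. They were the HLA-C promoter (exact p = 0.0418, lower in replicate 2), the HLA-E region at 7165 bp (exact p = 0.0241, lower in replicate 2) and the NLRC5 region at 56386 bp (exact p = 0.034, lower in replicate 2), each with an adjusted p of 1 in the same exact test. The test compares 2 libraries and covers counting error only. Over 23085 regions with summed heights of 400 or more, the mean squared deviate was 1.42, where counting error alone gives about 1. Strong peaks thus varied somewhat more than counts allow. Over 119566 regions without a limit on height it was 0.834.

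Other genes of the pathway were taken from lists of its main components. As a scale for the lists, 79.3% of all protein-coding genes had a TSS peak in both replicates, with a median fold enrichment of 52.6. Of 12 genes of peptide processing and loading, 12 had a TSS peak in both replicates, with a median fold enrichment of 95.9. The highest were the immunoproteasome genes PSMB8 and PSMB9, whose shared peak had a mean of 166, and CANX, a chaperone of newly made heavy chains, at 163. The lowest were ERAP2, an aminopeptidase that trims peptides, at 9.02, and TAPBPL, a peptide editor, at 15. ERAP1, the partner of ERAP2, had 105.

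Of 15 regulators of class I promoters, 15 had a TSS peak, with a median of 62.4. Within the X and Y box factors, NFYA had 204 and RFX5 201, and the other subunits of the RFX complex, RFXAP and RFXANK, had 27.2 and 42.8. In the interferon gamma receptor and JAK list, 4 of 4 genes had a TSS peak with a median of 48.8. JAK2 had 125 and JAK1 26, and the receptor chains IFNGR1 and IFNGR2 both had 48.8.

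HLA class II genes, which present peptides mainly on professional antigen-presenting cells, were set beside class I as a contrast. A TSS peak was present in 11 of 12, all but HLA-DRB1, beside 8 of 9 class I presentation genes, and the median was 21.1. Of these 11, 4 exceeded the median of all genes. HLA-DMA, a peptide exchange factor, had the highest value, 215, followed by HLA-DMB at 89.3. The HLA-DMA value is that of the strongest peak at any of its annotated starts. The gene is annotated from 32948613 to 32969094 on chromosome 6, and the start under this peak was not read. HLA-DQA1 had 9.71 and HLA-DOA 10.8, and CIITA, the class II counterpart of NLRC5, had 16 where NLRC5 had 62.4. With 1 condition, the lists were described and not tested against each other. Exact copies of sequence were counted for the class I presentation genes only. The part of read mapping in the class II values, such as the missing peak of HLA-DRB1, was not tested.

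**Figure D5:**
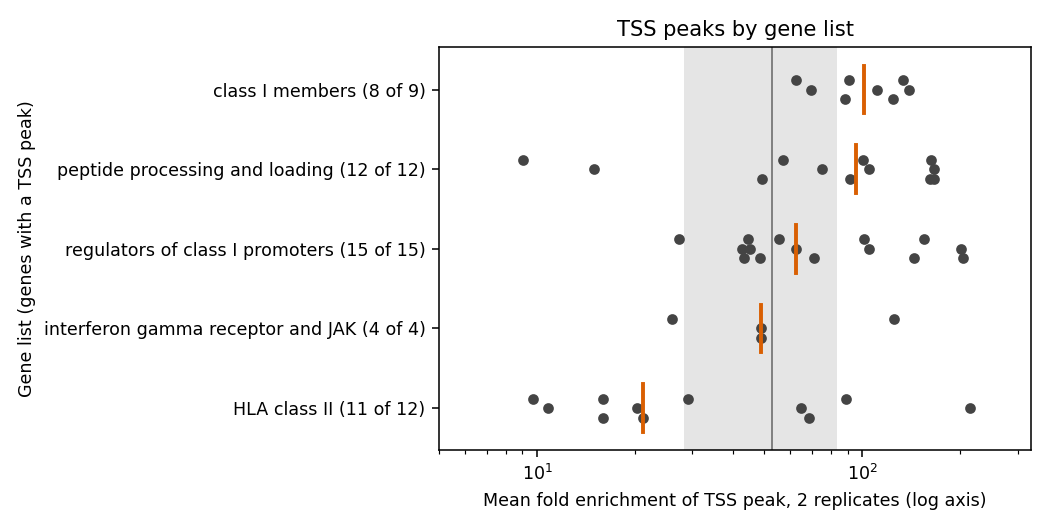
Mean fold enrichment over 2 replicates (log axis) of the strongest TSS peak of each gene (points) by list, with list medians (orange) and the median and 25th to 75th percentiles of all protein-coding genes (grey line and band). The class I genes range from 62.4 to 139 around a median of 101, and 7 of 11 HLA class II genes lie left of the grey line.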

How the data were processed

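ATAC-seq peak lists of 2 biological replicates of CAMA-1 were used. Per the labels, reads were trimmed with Trim Galore 0.6.5, aligned with Bowtie2 2.3.5.1 to hg38, and peaks were called with MACS2 2.2.6 in each replicate; further caller settings are not given in the sources used here. The authors deposited 4 values a peak, namely a score, a fold enrichment (ratio of peak height to background), and p-value and q-value as −log10. Heights were recovered from the fold enrichment, whose values fell on whole steps within 0.001 for 100% of peaks. Read totals were not used, so depth is known only through the backgrounds.

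Genes and TSSs came from GENCODE release 44. Peaks were assigned to gene bodies with 5 kb either side. Replicates were matched by an overlap of 1 bp and tested by an exact conditional binomial test. Motifs were searched in RefSeq windows, and exact words were counted over the hg38 sequence. Functions were tested on simulated data. The 9 genes are named in full. From other lists, the 2 highest, the 2 lowest and any gene without a peak are named, with PSMB9 always. IFNGR1, IFNGR2 and ERAP1 were named after their values were seen. CIITA is named outside this rule, as the counterpart of NLRC5. CANX is named as the next after the peak shared by PSMB8 and PSMB9. One blood marker is not reported here. Genes and lists were chosen with earlier results of these data known. Python 3.11.15, numpy 2.4.6, scipy 1.17.1, pandas 2.3.3, matplotlib 3.10.9 and Biopython 1.88 were used.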

Additional observations from a re-analysis of the deposited data

How the results depend on the processing

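The count of 8 class I presentation genes with a peak within 1 kb of a TSS, or within the other distances tried, was the same in every alternative run. At the canonical TSS, however, HLA-B counted through its weak peak alone, at the 3.23rd percentile in place of the 93.4th, and 7 of the 9 genes had a peak over that TSS itself. The place of HLA-B was thereby reversed, from above the median of all genes (mean 133 beside 52.6) to below it (5.65 beside 50). The count of genes above that median went from 8 of 8 to 7 of 8. The share of all genes whose TSS had a peak in both replicates, 79.3%, became 73.2% within 100 bp, 85.0% within 3 kb, 71.7% with the most 5′ TSS, 76.9% at a −log10 q of at least 10, 73.5% with the canonical TSS (chosen after seeing the data), and 80.1% to 80.6% with a single replicate. The median of the 8 TSS peaks, 101, was 102 and 104 without either replicate and 89.7 with canonical TSSs, where HLA-B falls to its weak peak. The median peaks per gene window, 5.5, became 2.5 without a flank, 10.0 with 20 kb and 3.5 at a −log10 q of at least 10. Regions that differed between replicates rose from 1 to 7 when heights were split by the genome backgrounds, 3 by the median ratio and 269 at a reciprocal overlap of 50%, with none in these genes in any of the 4. The cause was not tested. Words of 32 bases gave a median share of 7.84% with copies on the main chromosomes, 50 bases 0.21% and 100 bases 0%. No paired analysis was possible because the replicates form 1 condition. Peaks under a height of 11 are not listed, and 2 replicates limit every SD.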
